A study of Homo sapiens with 3 samples.

Results

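The 41 genes described here encode the DNA replication machinery, its nucleotide supply and the chromatin and checkpoint factors that act during S phase, the part of the cell cycle in which the genome is copied. They were chosen by gene symbol, and all 41 were found among the 19912 genes counted in a single-cell RNA experiment on HCT116, a human colorectal carcinoma cell line. The cells of every library carried a histone H2B-GFP label, grew in an organ-on-chip (a microfluidic culture device with a top and a bottom channel), and were detached with trypsin and sorted for GFP before droplet capture. The 3 groups were cells of the top channel of chips without peristaltic stretch (not stretched top, non-invaded), cells of the top channel of chips exposed to peristaltic stretch for 6 days (stretched top, non-invaded), and cells collected from the bottom channel of stretched chips (stretched bottom, invaded). There was no library of invaded cells without stretch, each group had 1 library, and nothing in the labels gives further replicates. Differences are therefore given by their size with no test, and the 95% intervals cover counting error only.

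Replication starts from origins on which the MCM helicase is loaded before S phase and then activated with CDC45 and the GINS complex. Primase and the DNA polymerases copy the opened strands, held by the sliding clamp PCNA, while histone chaperones rebuild chromatin behind the fork. Most genes of this machinery are targets of the E2F transcription factors, which cyclin-dependent kinases release from the retinoblastoma proteins. The mRNA of these genes is thus most abundant from late G1 into S phase.

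Promoters of the members were searched for the words that E2F factors are known to bind. RefSeq promoters (GRCh38.p14, 250 bases before to 50 after an annotated gene start) were on hand for 32 of the 41 genes. The search covered both strands and the E2F words TTTCCCGC, TTTGGCGC, TTTGCCGC and TTTCGCGC, with overlapping matches counted separately. At least 1 word was found for 19 of the 32 genes (59.4%), in 20 of their 43 promoters (46.5%). The same words were found in 3.31% of all 35116 promoters of that length and in 5.38% of the 10951 promoters of genes that reached 10 CPM (UMIs of the gene in parts per 1000000 UMIs of the library) in a library. A CCAAT box, searched as CCAAT on both strands, was found in 67.4% of the members' promoters, in 34.6% of all promoters and in 35.0% of those of genes reaching 10 CPM. The gene lists used below for comparison also held it, in 65.5% of 58 promoters of G2/M genes and 50.8% of 61 promoters of other replication genes. The CCAAT box was thus about as common in G2/M genes as in the members. E2F words were found in 6.90% and 31.1% of the promoters of these lists. The stretches below are the 5 with a whole E2F word in the 150 bases before the start and no annotated GENCODE exon in them. They are shown as examples of where the word lies, and of the 5 genes only GMNN passed 1.5-fold between libraries over all kept cells. Each is written 5′ to 3′ on the gene's strand, with the E2F words in capitals.
GMNN, chr6:24775263-24775412, plus strand: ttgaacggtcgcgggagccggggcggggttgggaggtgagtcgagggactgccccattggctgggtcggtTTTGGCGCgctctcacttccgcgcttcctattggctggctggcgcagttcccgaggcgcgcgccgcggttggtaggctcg
POLA1, chrX:24693768-24693917, plus strand: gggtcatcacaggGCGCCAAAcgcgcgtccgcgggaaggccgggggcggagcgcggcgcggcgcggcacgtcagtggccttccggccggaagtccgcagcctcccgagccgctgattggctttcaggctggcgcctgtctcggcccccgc
HELLS, chr10:94545638-94545787, plus strand: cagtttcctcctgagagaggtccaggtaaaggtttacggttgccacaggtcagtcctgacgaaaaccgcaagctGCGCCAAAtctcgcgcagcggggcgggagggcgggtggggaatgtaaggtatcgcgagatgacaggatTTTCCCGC
CASP8AP2, chr6:89829730-89829879, plus strand: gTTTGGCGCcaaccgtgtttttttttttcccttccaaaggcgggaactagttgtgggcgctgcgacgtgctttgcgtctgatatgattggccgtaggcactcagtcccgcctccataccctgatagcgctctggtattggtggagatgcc
MCM6, chr2:135876444-135876593, minus strand: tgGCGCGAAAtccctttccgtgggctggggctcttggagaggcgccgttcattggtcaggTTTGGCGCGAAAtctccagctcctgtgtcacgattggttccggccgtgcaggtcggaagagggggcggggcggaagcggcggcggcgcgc

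MCM6 had 4 matches, 2 of TTTGGCGC and 2 of GCGCGAAA, the reverse complement of TTTCGCGC. Each TTTGGCGC overlaps a GCGCGAAA by 4 bases, and the first of them starts at position −152, just before the printed stretch. Elsewhere the word GCGGGAAA, the reverse complement of TTTCCCGC, starts at position −39 before the gene start of TYMS, −31 before that of GINS2 and −59 before that of PCNA. A match is a description of the letters and does not show that a factor binds there. The 19 genes with a match had a median log2 ratio between the invaded cells and the stretched top cells of 0.38, with 4 past 1.5-fold, and the 13 genes without a match had 0.44, with 3 past it, so genes past 1.5-fold were found in both sets. The 9 genes in neither set were MCM5, MCM4, RPA2, WDR76, CCNE2, POLD3, ATAD2, DSCC1 and E2F8, of which DSCC1, CCNE2, E2F8, MCM5 and RPA2 were past 1.5-fold.

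All values below that come in threes follow the order not stretched top, stretched top, stretched bottom. The libraries held 17206, 20121 and 1951 kept cells with 212503735, 210814252 and 76641034 UMIs. Their median cells had 10964, 9384 and 40387 UMIs, and 9.64%, 10.4% and 4.09% mitochondrially encoded UMIs, so depth and mitochondrial share moved with the bottom library and cannot be told apart from it. The 10 epithelial markers summed to between 4797 and 5170 CPM in the 3 libraries. Of the 9 measured, 3 were past 1.5-fold lower in the bottom library than in either top library and 0 higher: ELF3 was at 92.5, 72.3 and 24.9 CPM, CDH1 at 50.4, 40.4 and 25.9 CPM and CLDN3 at 55.6, 52.6 and 32.4 CPM, while EPCAM was at 386, 389 and 501 CPM. Over all measured genes 11% were lower than in the stretched top and 20.7% lower than in the not stretched top library. The 8 endothelial markers summed to between 3.87 and 8.89 CPM, the 8 fibroblast markers to between 4.50 and 8.90 CPM and the 8 leukocyte markers to between 0.326 and 3.56 CPM, with DCN at 0 in the not stretched top, CLDN5 in the stretched top, and PDGFRA, CD3E and MS4A1 in the stretched bottom library. Their part in the results was not tested. A group of 6 apolipoprotein and related genes summed to 283 and 267 CPM in the top libraries and to 0.966 CPM in the bottom library, where 3 of the 6 were at 0. Without cells holding at least 5 UMIs of these genes, 12 S phase genes were at least 1.5-fold higher in the bottom than in the stretched top library, the number found with them. Of 8825 measured genes 7.98% were higher in that setting. The top libraries shared 216 barcodes, the not stretched top and bottom libraries 99 and the stretched libraries 61, of which 88, 6 and 9 were kept cells in both. Without shared barcodes 14 S phase genes were at least 1.5-fold higher in the bottom than in the stretched top library, beside 7.7% of 8869 measured genes.

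The S phase genes took up a larger share of the RNA in the invaded cells than in either top library. Their summed level was 2195 CPM (2189 to 2201) without stretch, 2008 CPM (2002 to 2014) in stretched top cells and 2699 CPM (2687 to 2711) in invaded cells. The bottom library was thus 1.34-fold (1.34 to 1.35) above the stretched top and 1.23-fold (1.22 to 1.24) above the not stretched top library, while the stretched top library stood at 0.915 (0.911 to 0.919) of the not stretched top. These distances depended on the cells and the scaling. Under a stricter cell filter, given below, the sums were 2576, 2429 and 2704 CPM, and in cells of 20000 to 60000 UMIs 2564, 2302 and 2670 CPM. The bottom library was still the highest in both, but by less. Under TMM scaling the sums were 2004, 2071 and 2866 CPM, so the stretched top then stood above the not stretched top library. In such sums, more cells in S phase and more of these mRNAs per cell cannot be told apart. Cells are sorted below by genes that are not members, which describes both but does not separate them in full. The most abundant members were the histone chaperone gene NASP (212, 209 and 220 CPM), TYMS, PCNA, RRM2, SLBP and ATAD2. The least abundant were CCNE2, E2F8, UBR7, EXO1 and CHAF1B. These CPM are UMIs per library, from the 3′ ends of transcripts, so they are not divided by gene length.

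Between the 2 top libraries, the members differed little. A member counts as past the threshold when its log2 ratio, computed after 1 CPM is added to each level, exceeds 1.5-fold. Genes under 10 CPM in both libraries of a pair were not counted. Of the 41 members 40 reached that minimum, and CCNE2, at 8.96 and 7.59 CPM, did not. With stretch 0 of the 40 were higher and 0 lower, in a background of 0.175% of 9119 genes higher and 0.592% lower. The median of the members was −0.17 on the log2 scale beside −0.16 for all measured genes. Under TMM and median of ratios scaling it was −0.0017 and 0.012 beside 0.017 and 0.032 for all genes, so its sign depended on the scaling while it stayed close to the median gene. The members ran from −0.43 to 0.13.

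MCM2, a subunit of the helicase, had the lowest log2 ratio between the top libraries, at −0.43, with 40.1 CPM without stretch and 29.4 CPM with stretch, 1.36-fold lower (1.32 to 1.41). E2F8, a repressor of the E2F family, was next at −0.43, with 12.6 and 9.08 CPM, 1.38-fold lower (1.30 to 1.47). At the other end stood UNG, which removes uracil from DNA, with 37.6 and 41.2 CPM and a log2 ratio of 0.13, and CDCA7, a chromatin factor, with 32.3 and 34.9 CPM and a log2 ratio of 0.11. None of these differences reached 1.5-fold.

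The invaded cells differed more. Of the 41 members 12 were at least 1.5-fold higher in the stretched bottom than in the stretched top library and 0 were lower, where 7.93% of 8870 genes were higher and 11% lower. The 12 were DSCC1, CCNE2, TYMS, GINS2, E2F8, MCM5, RFC2, GMNN, BLM, RAD51AP1, CENPU and RPA2. The median log2 ratio was 0.42 beside −0.0045 for all measured genes, 36 of the 41 were above 0, and the range was −0.54 to 1.00. Just inside the threshold was RPA2 at 0.61, and just outside it were FEN1 at 0.58 and CDC45 at 0.57. Against the not stretched top library 6 of the 41 were at least 1.5-fold higher and 0 lower (background 6.8% and 20.7% of 9218 genes), with a median of 0.31 beside −0.18 for all measured genes. Those 6 were DSCC1, TYMS, CCNE2, GINS2, GMNN and CENPU. Under a stricter filter (at least 2000 genes and 5000 UMIs, at most 10% mitochondrial UMIs) 1 was higher and 3 lower, with a median of 0.023. All genes then had a median of −0.21, with 4.24% higher and 20.3% lower. In cells of 20000 to 60000 UMIs 2 were higher and 1 lower, with a median of −0.017. All genes then had a median of −0.18, with 4.09% higher and 18.2% lower. The calls and the sign of the members' median thus depended on the cells compared, while that median stayed above the all-gene median in both settings. The comparisons share libraries and are not independent of each other.

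**Figure D1:**
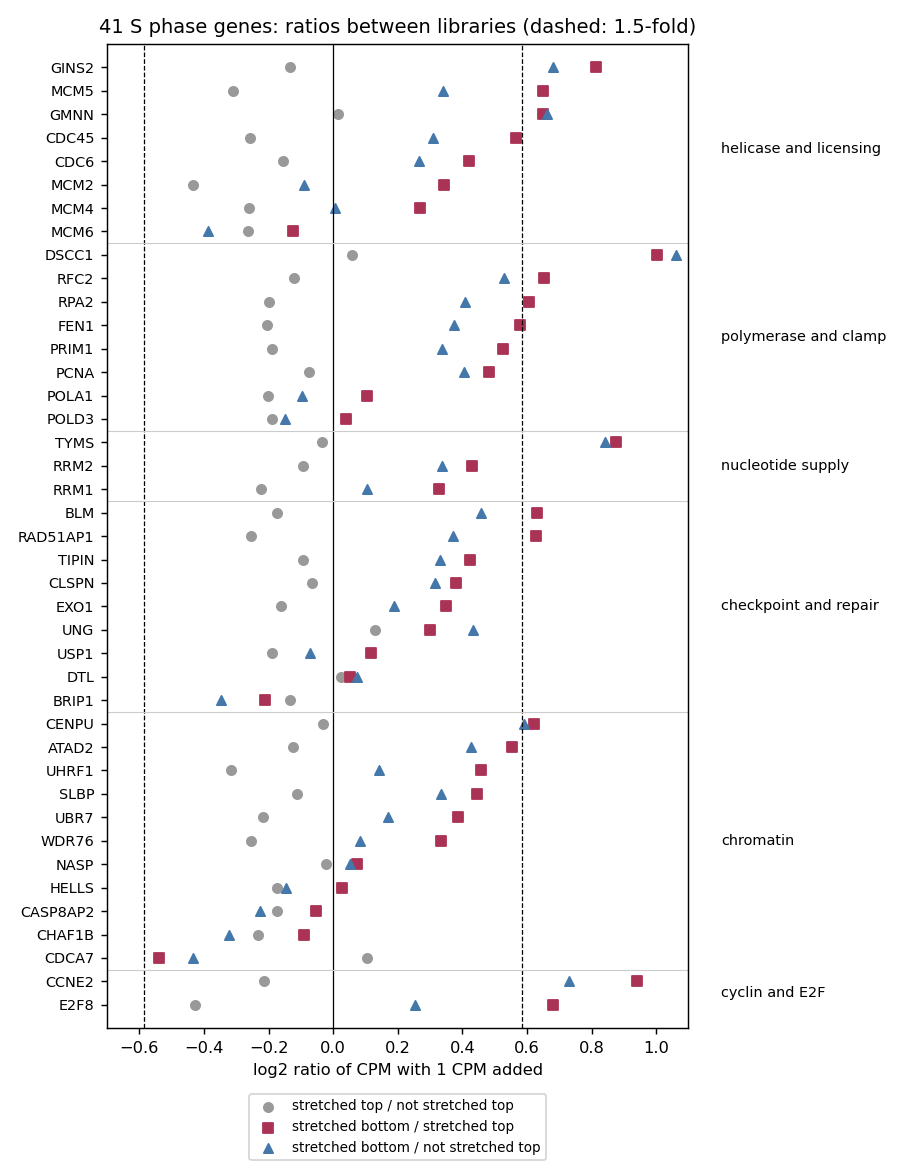
Log2 ratio of CPM with 1 CPM added (x axis) for each of the 41 genes (y axis, grouped by role), with circles for stretched top over not stretched top, squares for stretched bottom over stretched top and triangles for stretched bottom over not stretched top. Dashed lines mark 1.5-fold: no circle lies beyond them, 12 squares and 6 triangles lie beyond the right line, and no symbol lies beyond the left line.

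Among the 8 helicase and licensing genes, 3 were at least 1.5-fold higher in the bottom library than in the stretched top library, and the median log2 ratio was 0.49. For this and the role groups below, the share over all measured genes was 7.93% higher and 11% lower. GINS2 (ENSG00000131153, chromosome 16, 85676198 to 85690073, minus strand), which encodes a subunit of the GINS complex of the active helicase, was at 72.7 CPM without stretch, 66.2 CPM in stretched top cells and 117 CPM in invaded cells. The top libraries were close to each other and the bottom library stood above both, 1.77-fold (1.72 to 1.82) above the stretched top. MCM5 (ENSG00000100297, chromosome 22, 35400063 to 35425430, plus strand), a subunit of the MCM ring, was at 61.3, 49.2 and 77.9 CPM in the same order, a ratio of 1.58 (1.53 to 1.63) between the stretched libraries. It was the lowest in the stretched top library and stood 1.27-fold (1.23 to 1.31) higher in the bottom than in the not stretched top library. GMNN (ENSG00000112312, chromosome 6, 24774931 to 24786099, plus strand) encodes geminin, which blocks renewed loading of the helicase and whose protein is kept from S phase to mitosis. It was at 55.1, 55.7 and 87.9 CPM, with a ratio of 1.58 (1.53 to 1.63).

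The MCM subunits did not move as a block. MCM6 (ENSG00000076003, chromosome 2, 135839626 to 135876426, minus strand) was at 44.2, 36.7 and 33.6 CPM, lowest in the bottom library, and its ratio to the stretched top library was 0.916 (0.876 to 0.958). MCM2 was at 40.1, 29.4 and 37.6 CPM and MCM4 at 63.5, 52.8 and 63.8 CPM, so that for both the bottom library was near the not stretched top and the stretched top was the lowest. CDC45, which joins MCM and GINS in the active helicase, was at 21.0, 17.4 and 26.3 CPM, and CDC6, a loader of MCM, at 38.6, 34.6 and 46.6 CPM, both short of the threshold on the log2 scale. The remaining MCM ring genes were not members: MCM7 was at 144, 117 and 182 CPM and MCM3 at 106, 89.0 and 103 CPM. The subunits of a ring that assembles in equal numbers thus had log2 ratios on both sides of 0, and whether their proteins differ was not measured.

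Among the 8 polymerase, clamp and Okazaki fragment genes, 3 were past 1.5-fold, 8 of 8 were above 0 and the median was 0.55. DSCC1 (ENSG00000136982, chromosome 8, 119833976 to 119856010, minus strand), part of the alternative clamp loader that also serves sister chromatid cohesion, was at 28.5, 29.7 and 60.5 CPM. The top libraries were alike and the bottom library stood 2.04-fold (1.96 to 2.12) above the stretched top and 2.12-fold (2.04 to 2.21) above the not stretched top library. RFC2 (ENSG00000049541, chromosome 7, 74231499 to 74254458, minus strand), a subunit shared by the clamp loaders, was at 52.0, 47.7 and 75.5 CPM (1.58-fold, 1.53 to 1.63), and RPA2, which coats unwound strands, at 55.4, 48.2 and 73.9 CPM (1.53-fold, 1.48 to 1.58). FEN1, the nuclease that trims Okazaki fragments, was at 58.0, 50.2 and 75.4 CPM. The last 1000 exonic bases of FEN1 lie wholly within FADS2 on the same strand, so its counts are uncertain.

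PCNA (ENSG00000132646, chromosome 20, 5114953 to 5126626, minus strand), the clamp itself, was at 137, 130 and 182 CPM, a ratio of 1.40 (1.37 to 1.43) that did not reach the threshold. The polymerases proper stood nearest to 0. POLA1, the catalytic subunit of the priming polymerase, was at 54.3, 47.1 and 50.7 CPM, and POLD3, a subunit of polymerase delta, at 23.1, 20.2 and 20.8 CPM. For both the not stretched top library had the highest level. PRIM1, the primase subunit, was at 27.8, 24.3 and 35.5 CPM.

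All 3 nucleotide supply genes were higher in the bottom library than in either top library, with 1 past 1.5-fold. TYMS (ENSG00000176890, chromosome 18, 657604 to 673578, plus strand), thymidylate synthase and the target of 5-fluorouracil, was at 149, 145 and 268 CPM. With 20504 UMIs in the bottom library it contributed more UMIs there than any other member, and its ratio to the stretched top library was 1.84 (1.81 to 1.87). RRM2 and RRM1 encode the subunits of ribonucleotide reductase. RRM2 (ENSG00000171848, chromosome 2, 10120698 to 10131419, plus strand) was at 116, 109 and 147 CPM and RRM1 at 54.4, 46.5 and 58.5 CPM, ratios of 1.35 (1.32 to 1.38) and 1.26 (1.22 to 1.30). The last 1000 exonic bases of RRM2 overlap the gene AC007240.1 on the same strand in full, so the RRM2 counts are uncertain too.

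Of the 9 checkpoint and repair genes 2 were past 1.5-fold and the median was 0.35. BLM (ENSG00000197299, chromosome 15, 90717327 to 90816165, plus strand), a helicase that resolves recombination intermediates, was at 22.1, 19.4 and 30.7 CPM (1.58-fold, 1.498 to 1.66), and RAD51AP1 (ENSG00000111247, chromosome 12, 4538798 to 4560048, plus strand), a DNA-binding factor of homologous recombination, at 29.6, 24.7 and 38.6 CPM (1.57-fold, 1.496 to 1.64). BRIP1, a helicase that works with BRCA1 (ENSG00000136492, chromosome 17, 61681266 to 61863521, minus strand), was at 54.5, 49.5 and 42.6 CPM and so was lowest in the bottom library, with a ratio of 0.861 (0.828 to 0.896). DTL, which targets replication factors for degradation, hardly differed, at 29.3, 29.8 and 30.9 CPM. USP1, a deubiquitinase of PCNA, was at 42.0, 36.7 and 39.9 CPM. The fork factors CLSPN and TIPIN, the nuclease EXO1 and UNG had log2 ratios between 0.30 and 0.42.

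The 11 genes of chromatin and histone supply had the widest spread, from −0.54 to 0.62, with 1 past 1.5-fold and a median of 0.34. A count of 1 in 11 is near the 7.93% of all measured genes that were higher. CENPU (ENSG00000151725, chromosome 4, 184694618 to 184734133, minus strand), a kinetochore protein, was at 18.4, 18.0 and 28.2 CPM, with a ratio of 1.57 (1.49 to 1.66). ATAD2 (ENSG00000156802, chromosome 8, 123319850 to 123416350, minus strand), a bromodomain ATPase, was at 110.0, 101 and 148 CPM, with a ratio of 1.47 (1.44 to 1.51) that was under the threshold on the log2 scale. CDCA7 (ENSG00000144354, chromosome 2, 173354820 to 173368997, plus strand) was at 32.3, 34.9 and 23.7 CPM and was the member with the lowest ratio, 1.47-fold (1.40 to 1.55) lower in the bottom than in the stretched top library. HELLS, the nucleosome remodeller that CDCA7 activates, was at 96.7, 85.6 and 87.3 CPM, so it hardly differed between the stretched libraries. CHAF1B, a subunit of the chromatin assembly factor, was at 16.1, 13.6 and 12.7 CPM, and CASP8AP2, a factor needed for histone gene expression, at 33.8, 29.8 and 28.7 CPM. UHRF1, which guides maintenance of DNA methylation, was at 41.8, 33.3 and 46.2 CPM, and SLBP, which binds the stem loop of histone mRNAs, at 113, 105 and 143 CPM. UBR7, WDR76 and NASP had log2 ratios between 0.07 and 0.39.

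The cyclin and the E2F family member were both past 1.5-fold, though from the lowest levels of the list. CCNE2 (ENSG00000175305, chromosome 8, 94879770 to 94896678, minus strand), a cyclin E that activates CDK2 at the start of S phase, was at 8.96, 7.59 and 15.5 CPM, 2.04-fold (1.89 to 2.20) above the stretched top. E2F8 (ENSG00000129173, chromosome 11, 19224063 to 19241620, minus strand) was at 12.6, 9.08 and 15.2 CPM, 1.67-fold (1.55 to 1.80) above the stretched top and 1.21-fold (1.13 to 1.29) above the not stretched top.

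How firmly these 12 members stood past 1.5-fold depended on which cells were compared. Under a stricter filter (a minimum of 2000 genes and 5000 UMIs, and 10% mitochondrial UMIs as the maximum), 2 members were higher and 1 lower, with a median of 0.14. When cells were restricted to 20000 to 60000 UMIs, which left 1474 stretched top and 998 bottom cells, 2 were higher and 1 lower, with a median of 0.24. Background shares were 4.01% higher and 10.2% lower under the stricter filter, and 4.73% and 9.55% in the depth window. DSCC1 and CCNE2 were past 1.5-fold in 13 of 13 other settings, with log2 ratios between 0.69 and 1.097 and between 0.70 and 1.23. Settings that changed the minimum level or the fold threshold are not among the 13. The other 10 fell short under both the stricter filter and the depth window. The lower member was CDCA7 in both, with log2 ratios of −0.75 under the stricter filter and −0.82 in the depth window, so its distance from the stretched top library grew where that of most members shrank. Against the not stretched top library DSCC1 was past 1.5-fold in 13 of 13 settings. CCNE2 was past it in 11 of 13 and fell short under the stricter filter and with 5 CPM added.

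Genes of the same process outside the 41 gave a mixed picture. Of 52 other replication genes 50 were measured between the stretched libraries, with 11 higher, 2 lower and a median of 0.22. Over all 8870 measured genes 7.93% were higher and 11% lower, which is also the background of the G2/M counts below. RNASEH2A, the catalytic subunit of the RNase that removes RNA from DNA, was at 11.1, 11.3 and 36.2 CPM, 3.21-fold (3.04 to 3.39) above the stretched top. The origin recognition gene ORC6 was at 43.8, 39.8 and 69.1 CPM, the clamp loader gene RFC4 at 46.0, 43.8 and 76.0 CPM and the thymidine kinase gene TK1 at 220.2, 175 and 298.8 CPM. The activator E2F1 went the other way, at 15.4, 12.3 and 7.42 CPM, 1.66-fold (1.52 to 1.82) lower than in the stretched top. CCNE1 did too, at 19.1, 19.9 and 12.7 CPM, 1.57-fold (1.46 to 1.68) lower. The cyclin E genes thus lay on opposite sides, with CCNE2 2.04-fold higher and CCNE1 1.57-fold lower in the bottom library. Of 54 G2/M genes 22 were higher in the bottom than in the stretched top library and 0 lower, with a median of 0.51 beside 0.42 for the S phase genes.

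Regulators of S phase entry lay on both sides. Of 22 genes of CDK inhibitors, pocket proteins, G1 cyclins and anti-proliferative factors 19 were measured between the stretched libraries, with 1 higher, 7 lower and a median of −0.13. Over all measured genes 7.93% were higher and 11% lower. CDKN1C, the CDK inhibitor p57, was at 26.2, 23.0 and 4.40 CPM, 5.24-fold (4.69 to 5.87) lower. MXD4, an antagonist of MYC, was at 46.3, 42.5 and 10.9 CPM, and CCNG2, a cyclin linked to cell cycle arrest, at 17.9, 16.0 and 6.85 CPM. Repressor subunits of the E2F family split, with E2F5 at 17.4, 16.7 and 9.32 CPM and E2F4 at 35.6, 33.2 and 51.3 CPM. The CDK inhibitor genes CDKN1A and CDKN2A did not follow CDKN1C. CDKN1A was at 62.7, 72.5 and 93.0 CPM and CDKN2A at 119, 98.3 and 130 CPM, both highest in the bottom library. They were named by choice, and the other CDK inhibitors of the list are not described here.

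Single cells showed how the difference in the sum was spread. Each cell was thinned to 3000 UMIs, which left out 1507, 1205 and 242 shallower cells. The mean cell then held 5.87 (5.84 to 5.91), 5.39 (5.36 to 5.42) and 7.90 (7.77 to 8.04) UMIs of the 41 genes, and the median cell 4, 4 and 8. Unthinned, the 41 genes made up 0.155%, 0.146% and 0.273% of the median cell's UMIs. Cells with at least 5 of these UMIs were 48.4% (47.6 to 49.2), 46.0% (45.3 to 46.7) and 72.6% (70.4 to 74.7) of the libraries. Cells with at least 10 were 22.7% (22.04 to 23.4), 19.5% (19.0 to 20.1) and 35.9% (33.6 to 38.2).

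At higher counts the top libraries differed from each other. Cells with at least 15 UMIs were 8.001% (7.58 to 8.44), 5.43% (5.11 to 5.76) and 9.77% (8.40 to 11.3), so the bottom library was nearer to the not stretched than to the stretched top. Cells with at least 20 were 1.82% (1.62 to 2.04), 0.978% (0.843 to 1.13) and 1.46% (0.949 to 2.15), where the interval of the bottom library holds both top values. The cell at the 25th percentile held 2, 2 and 4 UMIs and the cell at the 99th percentile 21, 19 and 20. The coefficient of variation between cells was 0.888, 0.885 and 0.610. The bottom library thus had fewer cells with low levels, and at the 99th percentile it lay between the top libraries. No cell type that lacks these genes was present, so the part of free RNA in these shares was not tested.

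**Figure D2:**
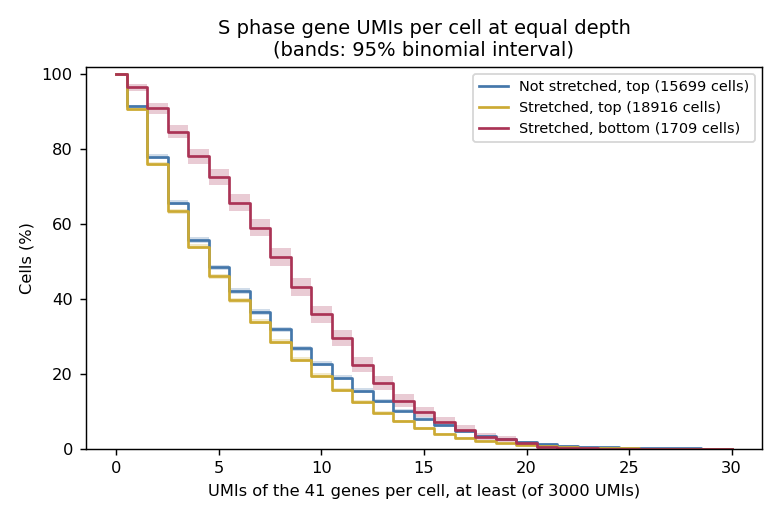
Share of cells (y axis, %) with at least a given number of UMIs of the 41 genes (x axis) after thinning to 3000 UMIs per cell, with lines for the 3 libraries and bands for 95% binomial intervals. The bottom library lies above both top libraries at 5 and 10 UMIs, and at 20 UMIs its band holds the values of both top libraries.

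The gap between the libraries also depended on the depth of the cells compared. In cells of 1000 to 5000 UMIs the summed level was 1874, 1185 and 2826 CPM, and the bottom library was 2.38-fold (2.27 to 2.50) above the stretched top. In cells of 5000 to 10000 UMIs it was 1428, 1531 and 2552 CPM, a ratio of 1.67 (1.59 to 1.75). From 10000 to 20000 UMIs the ratio was 1.149 (1.119 to 1.18), and from 20000 to 40000 UMIs it was 1.098 (1.08 to 1.11), with 2560, 2298 and 2522 CPM. In that last range the bottom library stood at 0.985 (0.973 to 0.997) of the not stretched top library.

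The level in the bottom library was thus nearly flat over depth, between 2522 and 2826 CPM, while both top libraries were lowest in cells under 10000 UMIs. Cells under 10000 UMIs were common in the top libraries. The range of 1000 to 5000 UMIs held 13.6%, 14.6% and 16.1% of cells, and that of 5000 to 10000 UMIs held 31.0%, 40.2% and 4.46%. Over 40000 UMIs there were 103, 12 and 994 cells, so that stratum rests on few top cells. In the not stretched top library the cells of 1000 to 5000 UMIs had a median mitochondrial share of 3.21%, beside 11.2% and 2.88% in the other libraries. Barcodes left out for few genes or UMIs at a low mitochondrial share had a summed level of 2990, 2682 and 3160 CPM. These levels were no lower than in kept cells. Barcodes left out for over 20% mitochondrial UMIs had 936, 976 and 1180 CPM. Their median mitochondrial share was 75.5%, 47.7% and 70.7%, which by itself lowers a level scaled to all UMIs. Scaled to non-mitochondrial UMIs only, they had 1853, 1643 and 2747 CPM, beside 2425, 2235 and 2819 CPM in kept cells. Whether shallow barcodes hold whole cells, parts of cells or free RNA was not tested.

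**Figure D3:**
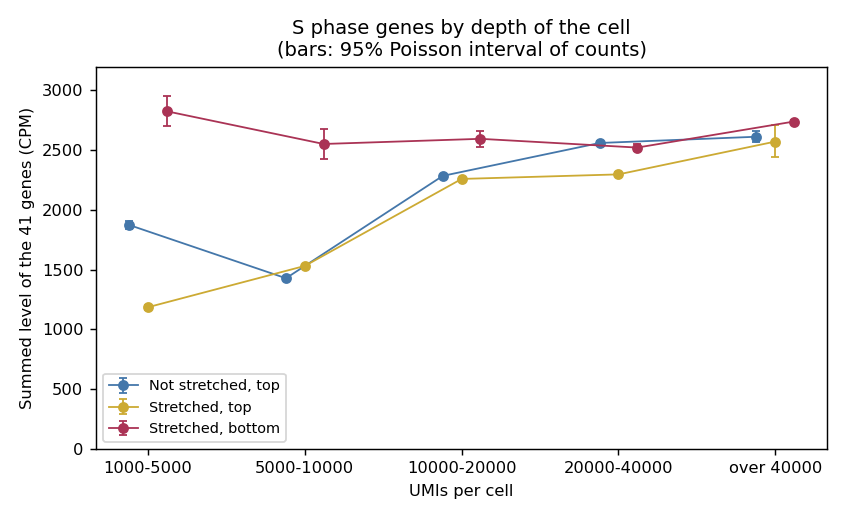
Summed level of the 41 genes (y axis, CPM) in cells grouped by UMIs per cell (x axis), with a line for each library and 95% Poisson intervals as bars. The bottom library lies between 2522 and 2826 CPM throughout, and the top libraries approach it above 10000 UMIs.

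To ask where in the cell cycle the members differed, cells were sorted by genes that are not members. Thinned cells with more than 11 UMIs of the 52 other replication genes, more than 21 UMIs of 54 G2/M genes (of the phase between replication and cell division), both or neither were set apart, with the limits at the pooled 75th percentiles. These are ranges and not cell types, and 16.9%, 17.4% and 29.1% of cells lay within 1 UMI of a limit. In each library all 41 members were higher in replication-high than in both-low cells, by medians of 3.74-fold, 3.55-fold and 2.39-fold. The sorting used genes of the same process, so higher members in these cells can follow from it. In the bottom library the ratios ran from 1.01 for TIPIN, which hardly differed, to 5.25, and 31 of the 41 were at least 2-fold. Both-low cells made up 63.4% and 67.3% of the top libraries and 37.6% of the bottom library. Replication-high cells were 13.7%, 10.7% and 16.4%, cells high in both lists 10.6%, 7.70% and 18.4%, and G2/M-high cells 12.2%, 14.3% and 27.6%.

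Within replication-high cells the 3 libraries had nearly the same level, with means of 12.2 (12.1 to 12.4), 11.4 (11.2 to 11.5) and 11.8 (11.4 to 12.2) UMIs of the 41 genes per 3000. These cells passed the same limit on genes of the same process, with means of 15.8, 15.1 and 15.6 UMIs of the other replication genes. A similar level of the members can follow from that sorting. The ratio of the bottom to the stretched top library was 1.03 (0.996 to 1.07) in these cells, 0.994 (0.957 to 1.03) in cells high in both lists and 1.148 (1.11 to 1.19) in G2/M-high cells. In both-low cells the means were 3.48, 3.60 and 5.25, a ratio of 1.46 (1.41 to 1.51). The bottom library thus held more cells in the ranges where the members are high, and higher levels in its both-low cells. Those both-low cells also carried more UMIs of the sorting lists, with means of 4.18 replication and 7.75 G2/M UMIs for stretched top cells compared with 5.51 and 10.7 in invaded cells, so they lay nearer to the limits.

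**Figure D4:**
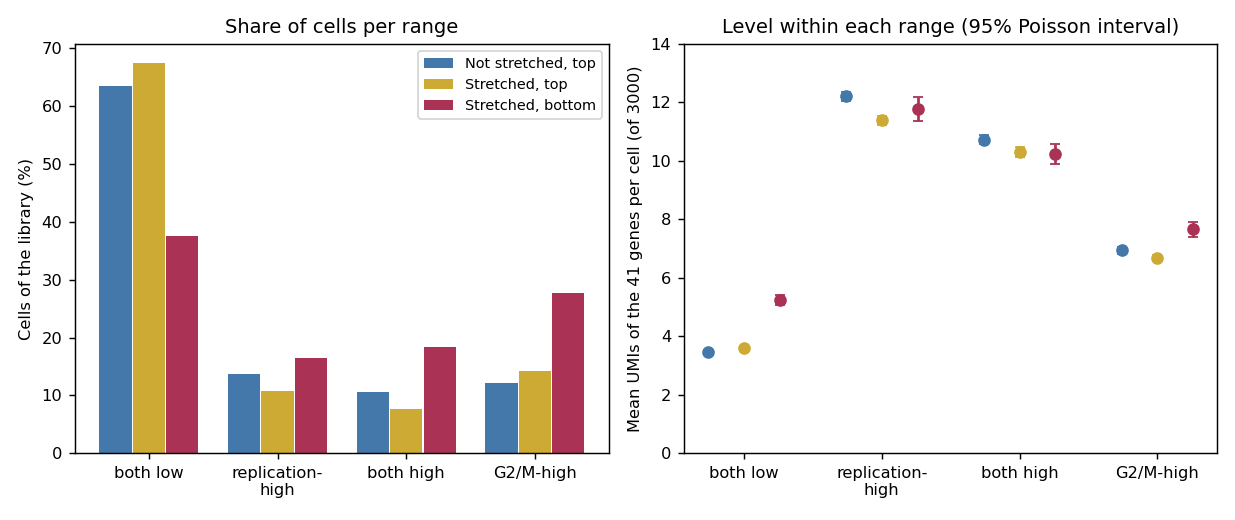
Left, share of cells (y axis, %) in 4 ranges set by genes that are not members (x axis); right, mean UMIs of the 41 genes per cell at 3000 UMIs (y axis) in the same ranges, with 95% Poisson intervals. The bottom library has 37.6% both-low cells beside 63.4% and 67.3% in the top libraries, and in replication-high cells the 3 means lie between 11.4 and 12.2 UMIs.

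Among replication-high cells few members lay past 1.5-fold. Between the stretched libraries 3 of 41 were at least 1.5-fold higher there and 1 lower, beside 11.4% and 10.4% of 9218 genes. The bottom library had 281 such cells, so genes near the minimum of 10 CPM rest on few UMIs. Counting error can carry those genes past 1.5-fold, so this background cannot show whether members differed less often than other genes. CCNE2 was at 25.7 (21.9 to 29.9), 22.9 (19.2 to 27.0) and 42.7 (29.9 to 59.1) CPM in these cells, BLM at 45.7 (40.7 to 51.3), 40.5 (35.6 to 45.8) and 77.1 (59.5 to 98.3) CPM, and E2F8 at 28.3, 17.3 and 30.8 CPM. CHAF1B was lower, at 30.4 (26.3 to 35.0), 30.3 (26.04 to 35.0) and 16.6 (9.08 to 27.9) CPM. The bottom values rest on 36 UMIs of CCNE2, 65 of BLM, 26 of E2F8 and 14 of CHAF1B. In both-low cells 15 of 37 measured members were at least 1.5-fold higher in the bottom library and 0 lower (background 13.8% and 8.63% of 9015 genes), led by DSCC1, BLM, GINS2 and TYMS.

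The members also differed in how far their levels extended into G2/M-high cells. The level in G2/M-high cells relative to replication-high cells had medians over the 41 of 0.483, 0.550 and 0.589. CCNE2 and EXO1 were the lowest in each library. CCNE2 was at 0.102 (0.0556 to 0.173), 0.173 (0.114 to 0.255) and 0.215 (0.105 to 0.415). EXO1 was at 0.238, 0.256 and 0.208, and so below CCNE2 in the bottom library. Next were WDR76 at 0.326, 0.265 and 0.272 and DTL at 0.259, 0.304 and 0.276. TYMS stood near the other end, at 0.987 (0.914 to 1.07), 0.899 (0.837 to 0.966) and 1.16 (0.982 to 1.38), so its mRNA was about as high in G2/M-high as in replication-high cells. UBR7, from few UMIs, was at 0.821, 0.940 and 0.916, RRM2 at 0.873, 0.868 and 0.839, RRM1 at 0.800, 0.784 and 0.719, and NASP at 0.804, 0.720 and 0.814. All 3 nucleotide supply genes thus lay above the median member in each library. RFC2 differed between libraries, at 0.619 (0.538 to 0.711), 0.643 (0.566 to 0.731) and 0.960 (0.721 to 1.29), with an interval in the bottom library that overlapped that of the stretched top.

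**Figure D5:**
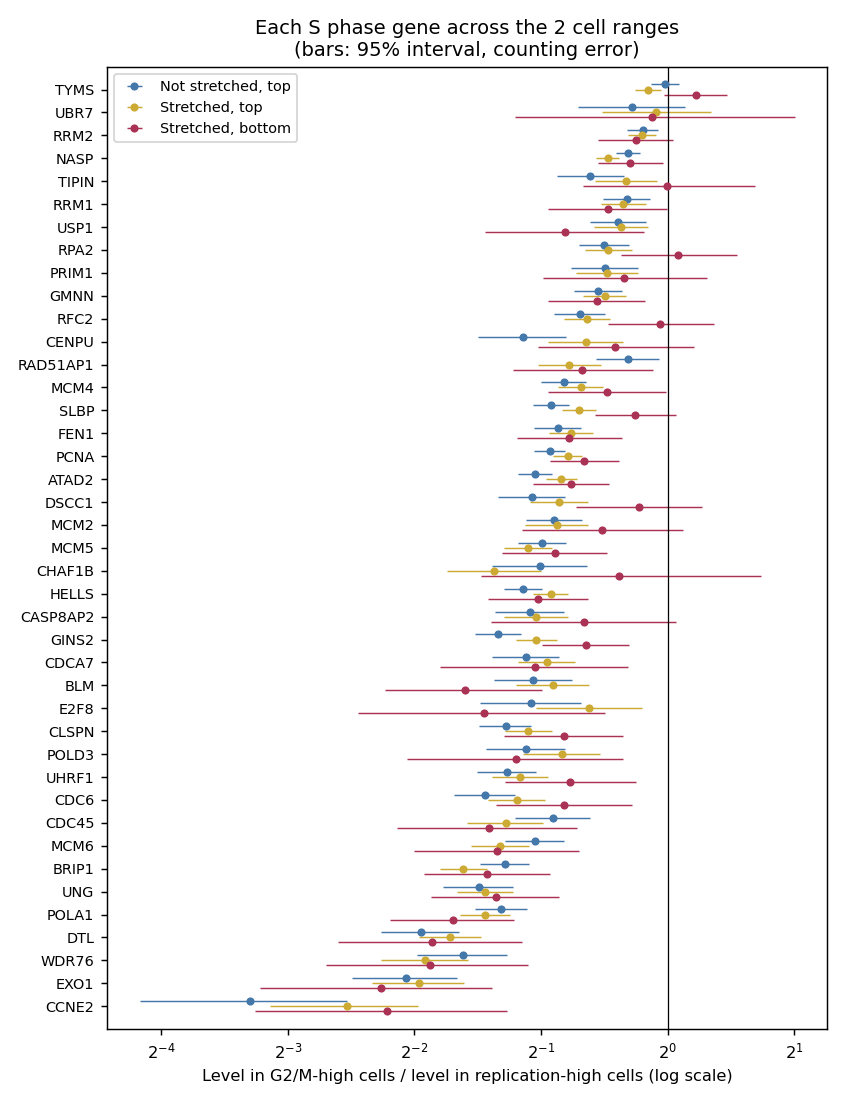
Level of each of the 41 genes in G2/M-high cells divided by its level in replication-high cells (x axis, log scale), with points for the 3 libraries and bars for 95% intervals of counting error. CCNE2, EXO1, WDR76 and DTL lie lowest, between 0.102 and 0.326, and TYMS lies near 1 in each library.

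Gene length ran with the ratios, here as in the whole table. Across the 41 members Spearman's rho between the length of the gene on the genome and the log2 ratio of bottom to stretched top was −0.38, and across the 8870 measured genes it was −0.35. The 4 longest members, POLA1, BRIP1, POLD3 and HELLS, had ratios between 0.861 and 1.08, but BLM and ATAD2, the next in length, were at 1.58 and 1.47, and CDCA7, among the short ones, had the lowest ratio. Genes share libraries and are not independent replicates, and the part of gene length in the members' differences was not tested.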

How the data were processed

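For each of 3 libraries the authors deposited raw UMI counts as a matrix of genes by barcodes. It came from Cell Ranger 7.0.0 per the file headers, on hg38 per the submitters' processing notes. Which annotation was used and whether intronic reads were counted is not given in the sources used here. Every listed barcode had at least 500 UMIs. The filter asked for 500 genes, 1000 UMIs and no more than 20% mitochondrially encoded UMIs, and removed 34.1% (not stretched top), 20.1% (stretched top) and 44.5% (stretched bottom) of them. No doublets were removed.

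Counts of kept cells were added up and scaled to the library total (CPM). Intervals are exact Poisson for CPM, exact conditional binomial for ratios of CPM and Clopper-Pearson for shares of cells, all at 95%, and PCR and cell-to-cell variation are not in them. Ratios past 1.5-fold were counted on the log2 scale after 1 CPM was added, leaving out genes under 10 CPM in both libraries. Values in strata, ranges and thinned cells come from the same counts. The S phase genes, the other gene lists and the cell ranges were chosen with earlier results of these data known. Named in full are the 2 to 4 genes of each role with the largest ratios in either direction between the stretched libraries, and further members (MCM6, PCNA, BRIP1) by choice after their values were seen. Coordinates and same-strand overlap of the last 1000 exonic bases came from GENCODE release 29 (same build), and promoters from RefSeq (GRCh38.p14).

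Alternatives in scaling were TMM (edgeR 4.0.16 in R 4.3.3), median of ratios, and totals that omit mitochondrial and ribosomal protein genes. Alternatives in cells were no filter, a stricter filter, equal weights per cell, thinning, cells of 20000 to 60000 UMIs, leaving out the 5% deepest cells, apolipoprotein-positive cells or shared barcodes, and range limits at the 90th percentiles. Others changed the CPM added, the minimum level, the fold threshold or the thinning depth. On simulated data drawn from the stretched libraries (8518 genes), the ratio step called 70 of 70 genes set to 2-fold and 70 of 70 set to 4-fold, and 0 of 60 set to 1.25-fold and 0 of 8318 left alone. The simulated counts held counting error only, and no fold was set between 1.25 and 2. The run thus checks the arithmetic and not calls near 1.5-fold. Python 3.11.15 ran numpy 2.4.6 and scipy 1.17.1 (statistics), pandas 2.3.3 (tables) and matplotlib 3.10.9 (figures).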

Additional observations from a re-analysis of the deposited data

How the results depend on the processing

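With 1 library per group no replicate could be left out. No paired analysis was possible because each group had 1 library and the labels give no numbers that link samples. No member past 1.5-fold changed sign in any alternative run. Of the single-gene values under the alternatives 897 lay within the counting interval of the reported ratio and 702 outside it. Between the stretched libraries the main count was 12 members higher and 0 lower, with a median of 0.42. It became 2 higher and 1 lower (median 0.14) under the stricter cell filter and 2 higher and 1 lower (0.24) in cells of 20000 to 60000 UMIs. With totals without mitochondrial and ribosomal protein genes it became 4 higher and 1 lower (0.29). In these settings 4.01%, 4.73% and 4.03% of all genes were higher and 10.2%, 9.55% and 17.3% lower. The member lower in these settings was CDCA7. In thinned cells 19 were higher (0.57), where 11.2% of all genes were higher beside 7.93% in the main count. With 5 CPM added 7 were higher, at a minimum of 50 CPM 7 of 19 measured, and at 2-fold 1. Of all genes 6.2%, 13.2% and 1.27% were higher there. The median was 0.54 with equal cell weights and 0.49 under median of ratios scaling. Against the not stretched top library the main count was 6 higher and 0 lower (0.31). It became 1 higher and 3 lower (0.023, with MCM6, CDCA7 and BRIP1 lower) under the stricter filter, where the all-gene median was −0.21 and 20.3% of all genes were lower. In cells of 20000 to 60000 UMIs 2 were higher and 1 lower (−0.017), beside an all-gene median of −0.18 and 18.2% of all genes lower. The count was 13 higher (0.52) under TMM, 18 higher (0.56) under median of ratios scaling and 11 higher (0.44) in thinned cells. In these 3 settings 14.9%, 17.2% and 8.62% of all genes were higher, beside 6.8% in the main count. At 2-fold 1 was higher, beside 1.62% of all genes. The medians were 0.39 for equal cell weights and 0.23 for totals without mitochondrial and ribosomal protein genes. Between the top libraries no alternative setting outside the cell ranges gave a member past 1.5-fold. Within the ranges MCM2 was past it, lower with stretch, in replication-high and G2/M-high cells, with log2 ratios of −0.61 and −0.59. E2F8 was past it, also lower, in replication-high cells and in cells high in both lists, with −0.68 and −0.72. Outside the ranges the median of −0.17 became −0.0017 under TMM and 0.012 under median of ratios scaling. It was −0.12 under the stricter filter and −0.12 with totals without mitochondrial and ribosomal protein genes. Mean UMIs of the members per 3000 were 6.09, 5.48 and 8.12 when cells were thinned to 1000 UMIs, and 5.98 and 5.67 in the top libraries at 5000. In replication-high cells set by the 90th percentiles they were 13.6, 12.5 and 12.3, so the bottom library then stood lowest. The cause of these shifts was not tested. Depth limits the bottom library most: a UMI count of 0 over its kept cells allows up to 0.0391 CPM, beside 0.0141 and 0.0142 CPM in the top libraries.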
